A study of Mus musculus with 9 samples.

Results

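Cholesterol and fatty acid synthesis was followed through 28 named genes: enzymes of the mevalonate, squalene and sterol steps, the SREBP regulators, and enzymes of fatty acid synthesis. The genes were taken by symbol, and for each gene the brightest probe set annotated to that symbol alone, by its mean across the 9 arrays, was read. Of the 28 genes, 27 were found among the 18193 genes measured in this way, and Acat2 was not analysed here. Values are log2 levels, on which a difference of 1 is a 2-fold difference. Probe sets differ in brightness, so a gene was compared only with itself across arrays.

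Each array held RNA of cells sorted from lungs of female 4get mice on the BALB/c background, 6 to 8 weeks old, whose Il4 locus carries a GFP reporter. IL-25 was given to all of them by the intratracheal route, in daily doses of 0.5 µg (volume 50 µL) over 4 days, so no untreated lung is compared. The 3 arrays labelled T2M held CD11b+ cells gated as F4/80+, IL-4/GFP+, Gr-1mid, MHCIIlo and IL-5rα-. The other gates were GFP- and CD11b+: eosinophil-labelled cells (2 arrays) were IL-5rα+, F4/80-, MHCIIlo and Gr-1hi, neutrophil-labelled cells (2 arrays) were IL-5rα-, F4/80-, MHCIIlo and Gr-1+, and macrophage-labelled cells (2 arrays) were IL-5rα-, F4/80+, MHCII+ and Gr-1-. Cells of 4 donor mice were pooled, 400000 cells were sorted per sample, and 50 ng of RNA was amplified. The labels describe separate pools, but the 2 macrophage-labelled arrays were so alike (over all genes a correlation of 0.994, with 0.176% of genes over 2-fold apart) that they may share 1 RNA. Adjusted p-values that count them as 2 samples may then be too small.

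Cholesterol is built from acetyl-CoA through mevalonate, isoprenoids, squalene and lanosterol. When sterols are scarce, SCAP escorts the membrane-bound factors SREBP1 and SREBP2 from the endoplasmic reticulum to the Golgi for cleavage, and the released factors switch on most of the genes named here. When sterols are plentiful, INSIG proteins hold SCAP back. In macrophages the balance of sterol synthesis, oxysterol formation and efflux is known to change with activation.

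The sequences before the transcription starts were examined for 4 motifs that bear on this control, because SREBP acts at promoters together with NF-Y and Sp1. RefSeq windows (build GRCm38.p6) were held for 23 of the 28 symbols, 31 windows in all, and the 250 bases before each start were searched on both strands, each motif on its own, so that matches could overlap. The NF-Y box, CCAAT, was present for 19 of 23 members (82.6%), against 39.4% of 14453 genes on the array that had a window. The Sp1 box, GGGCGG, was also present for 19 of 23 members, against 53.4% of genes. The E-box core, CACGTG, was present for 5 members (21.7%), against 8.73% of genes. A sterol regulatory element written as TCACNCCAC was present for 1 member, Hmgcs1 (4.35%), against 1.27% of genes. Only this pattern was searched, so sterol elements spelled otherwise were not counted. Genes with several windows have more chances of a match. Counted per window, the NF-Y box was in 64.5% of member windows and 34.7% of all 18110 windows, and the Sp1 box in 71.0% and 48.3%. Matches are given as descriptions of these letters, not as sites in use.

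The upstream sequences of 4 members are shown 5′ to 3′, that of Hmgcs1 because it held the sterol regulatory element, and those of Srebf2, Lss and Hsd17b7 because these genes differed between labels and each has a single window. Capitals mark the sterol regulatory element and the NF-Y boxes on either strand.
Hmgcs1, chr13:119690101-119690350, plus strand: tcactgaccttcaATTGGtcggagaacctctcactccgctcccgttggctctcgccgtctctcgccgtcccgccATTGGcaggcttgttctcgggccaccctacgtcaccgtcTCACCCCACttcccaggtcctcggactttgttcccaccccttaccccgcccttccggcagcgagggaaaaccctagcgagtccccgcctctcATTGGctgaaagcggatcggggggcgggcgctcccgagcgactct
Srebf2, chr15:82147019-82147268, plus strand: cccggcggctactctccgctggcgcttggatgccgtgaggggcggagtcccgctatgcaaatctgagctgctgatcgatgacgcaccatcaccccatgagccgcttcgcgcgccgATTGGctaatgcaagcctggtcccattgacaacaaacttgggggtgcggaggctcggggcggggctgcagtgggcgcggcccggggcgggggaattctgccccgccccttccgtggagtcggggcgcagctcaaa
Lss, chr10:76531355-76531604, plus strand: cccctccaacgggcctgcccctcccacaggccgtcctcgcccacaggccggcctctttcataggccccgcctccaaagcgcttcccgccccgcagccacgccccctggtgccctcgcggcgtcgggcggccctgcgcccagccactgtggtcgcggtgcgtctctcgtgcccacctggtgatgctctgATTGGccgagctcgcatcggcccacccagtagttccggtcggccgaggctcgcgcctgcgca
Hsd17b7, chr1:169969206-169969455, minus strand: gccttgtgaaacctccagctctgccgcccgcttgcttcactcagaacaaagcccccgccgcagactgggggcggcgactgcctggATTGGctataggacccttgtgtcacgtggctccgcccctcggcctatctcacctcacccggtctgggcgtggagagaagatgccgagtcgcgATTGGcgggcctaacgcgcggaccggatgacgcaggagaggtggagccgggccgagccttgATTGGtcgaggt
In Hmgcs1 the sterol regulatory element began 137 bases before the start and lay in the same window as 3 NF-Y boxes. Hsd17b7 held 3 NF-Y boxes, and Srebf2 and Lss held 1 each.

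The arrays were first set against markers of the cells that each gate could hold, and the means of the marker lists went against the names. The mean log2 level of 7 measured eosinophil markers (of 10 listed) was 9.18 to 9.62 on T2M arrays, 6.06 and 6.87 on eosinophil-labelled arrays, 5.31 and 7.34 on neutrophil-labelled arrays, and 4.38 and 4.45 on macrophage-labelled arrays. Epx, a granule protein of eosinophils, was at 7.01 to 7.53 on T2M arrays and at 5.01 and 5.09 on eosinophil-labelled arrays. The mean of 11 measured neutrophil markers (of 12) was highest on the eosinophil-labelled arrays, at 11.42 and 11.91, against 7.66 and 9.07 on those labelled neutrophils. Of the 11, 8 were called higher on eosinophil-labelled than on neutrophil-labelled arrays, against 3.55% of all genes. The mean of 10 macrophage and monocyte markers (of 10) was highest on the neutrophil-labelled arrays, at 10.84 and 10.90, and ran from 8.77 to 10.20 elsewhere. This list was split: 2 of the 10 were called higher there than on macrophage-labelled arrays, against 1.13% of all genes. Cx3cr1, Ccr2 and Cd68 instead had their highest label means on the macrophage-labelled arrays, at 10.58, 11.5 and 12.14. Every population is therefore named by its label only. Array medians lay between 5.48 and 5.68. The replicate arrays of a label correlated over all genes at 0.994 for macrophages, 0.951 for eosinophils, 0.932 to 0.97 for T2M and 0.915 for neutrophils.

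Across labels, the synthesis genes were lowest where the array label was eosinophils. For 19 of 27 members (70.4%) the eosinophil-labelled mean was the lowest of the 4 label means, against 25.1% of all genes, and for 0 of 27 it was the highest, against 23.8% of all genes. The neutrophil-labelled mean was the highest for 12 members (44.4%, against 22.6% of all genes), the macrophage-labelled mean for 8 (29.6%, against 28.4%) and the T2M mean for 7 (25.9%, against 25.2%). Relative to each gene's own mean over the 9 arrays, the median member lay at -0.33 and -0.64 on the eosinophil-labelled arrays, and at -0.01 and 0.87 on the neutrophil-labelled arrays. It lay at 0.15 and 0.06 on the macrophage-labelled arrays and at 0.32, -0.08 and 0.04 on the T2M arrays. Without neutrophil replicate 2, the array with the highest member levels, the eosinophil-labelled mean was the lowest for 14 members and the neutrophil-labelled mean the highest for 7. Without neutrophil replicate 1 these counts were 19 and 19. All these counts rest on 1 probe set per gene and were not repeated with others. Of 31 other probe sets of members, 15 correlated with the one used above 0.5 and 6 below 0. In bulk RNA, fewer cells of a type and less RNA per cell cannot be told apart.

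**Figure D1:**
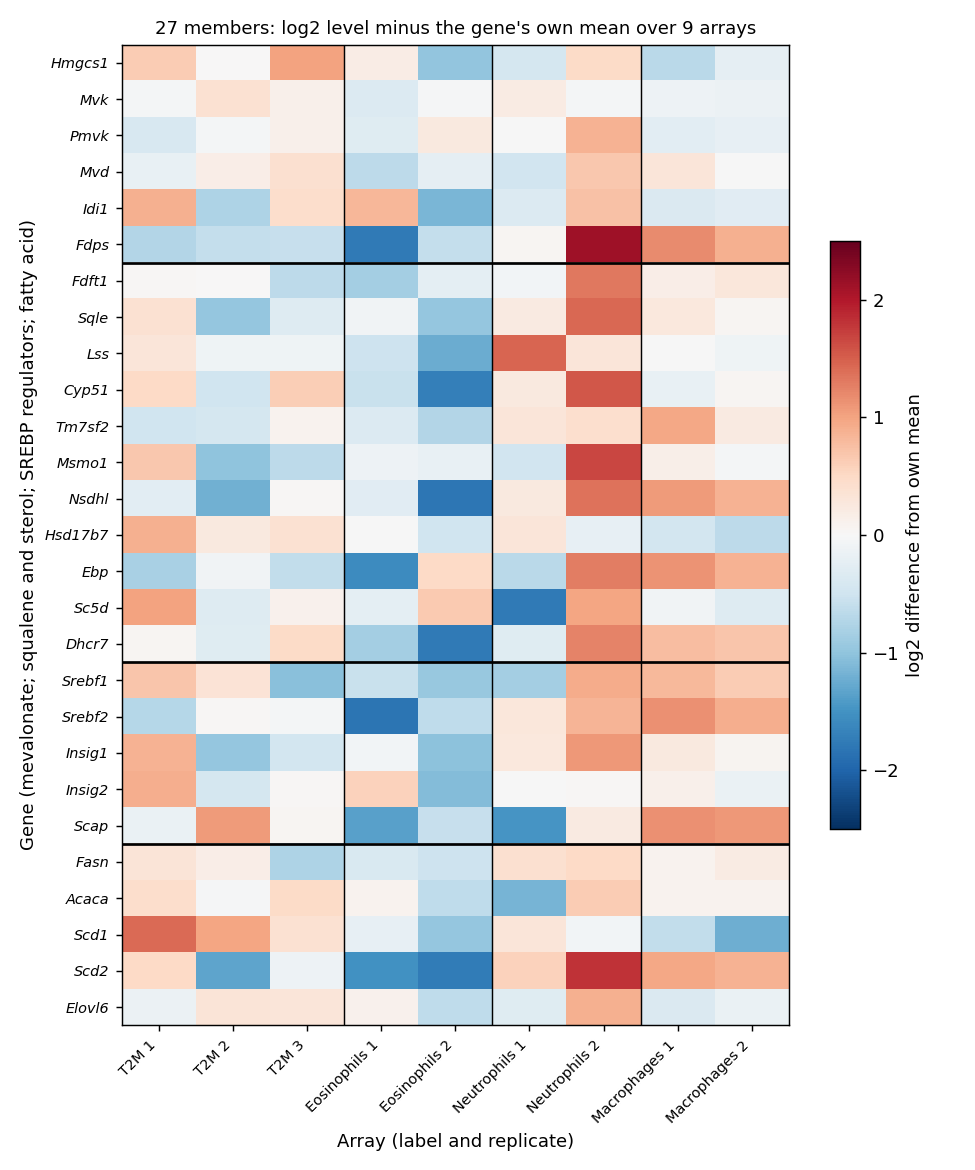
Heat map of the 27 members (rows, by role) on the 9 arrays (columns, by label and replicate), coloured by the log2 level minus the gene's own mean over the 9 arrays. The eosinophil-labelled columns are mostly below 0, and neutrophil replicate 2 is above 0 for 24 of 27 genes.

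The 6 comparisons between labels were tested with limma, with Benjamini-Hochberg adjustment over all 18193 genes and a call at an adjusted p under 0.05. Comparisons that share a label share its arrays, so their values are given side by side and are not independent of each other. Eosinophil-labelled arrays were lower than macrophage-labelled arrays for 5 of 27 members (18.5%): Srebf2, Scd2, Dhcr7, Fdps and Scap. Over all genes 11.5% were called lower in that comparison, 5.89% higher, and 17.4% were called in either direction. Eosinophil-labelled arrays were lower than neutrophil-labelled arrays for 3 of 27 members (11.1%), Scd2, Lss and Srebf2, against 4.33% of all genes called lower, 3.55% higher and 7.88% called in either direction. T2M arrays were higher than macrophage-labelled arrays for 2 of 27 members (7.41%), Scd1 and Hsd17b7, against 6.53% of all genes called higher, 10.6% lower and 17.2% called in either direction. That share lies near or below the share over all genes and is no result about the members as a group.

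No member was called by limma in the other comparisons in this fit. A fit with the replicate number as a block called Scd1 between T2M and eosinophil-labelled arrays. Other fits are given with the processing. For T2M against eosinophil-labelled arrays 0 of 27 were called, against 4.46% of all genes (1.57% higher and 2.89% lower), and 8 had an unadjusted p under 0.05. For T2M against neutrophil-labelled arrays 0 were called, against 2.82% of all genes (1.25% higher and 1.57% lower), and 3 had an unadjusted p under 0.05. For neutrophil-labelled against macrophage-labelled arrays 0 were called, against 2.26% (1.13% higher and 1.13% lower), and 2 had an unadjusted p under 0.05. These percentages are of adjusted calls. The share of all genes with an unadjusted p under 0.05 is not given here, so the unadjusted counts cannot be read as an excess. The median standard error (SE) of a member difference was 0.49 with T2M and 0.537 between the other labels.

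The arrays of 2 labels did not overlap for further members. All eosinophil-labelled arrays were below all macrophage-labelled arrays for 18 of 27 members, against 31.7% of all genes, and above them for 0, against 46.1%. They were below all neutrophil-labelled arrays for 13 members, against 23.7% of all genes, and above them for 0, against 16.7%. T2M arrays were all above the eosinophil-labelled arrays for 8 members, against 19.4% of all genes, and all below for 0, against 14%. They were above the macrophage-labelled arrays for 5 members (40.7% of all genes) and below for 9 (27.7%), and above the neutrophil-labelled arrays for 1 (10.7%) and below for 6 (15.1%). Neutrophil-labelled arrays were above macrophage-labelled arrays for 8 members (36.8%) and below for 2 (23.1%).

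Signs and medians over the members add the differences that were not called. The T2M minus eosinophil-labelled difference was above 0 for 25 of 27 members, against 56.7% of all genes, with a median of 0.55 against 0.06 over all genes. The eosinophil minus neutrophil-labelled difference was below 0 for 26 members, against 55.9% of all genes, with a median of -0.79 against -0.07. The eosinophil minus macrophage-labelled difference was below 0 for 20 members, against 41.2% of all genes, with a median of -0.68 against 0.18. The T2M minus neutrophil-labelled difference had a median of -0.54 against -0.03, with 18 of 27 below 0, against 53% of all genes. That median was 0.15 without neutrophil replicate 2. The T2M minus macrophage-labelled difference had a median of -0.25 against 0.18, with 15 below 0, against 42% of all genes. The median of the members was 0.18 after quantile normalization. The neutrophil minus macrophage-labelled difference had a median of 0.28 against 0.17, with 17 of 27 above 0, near the 59.9% of all genes. The median of the members was -0.28 without neutrophil replicate 2.

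**Figure D2:**
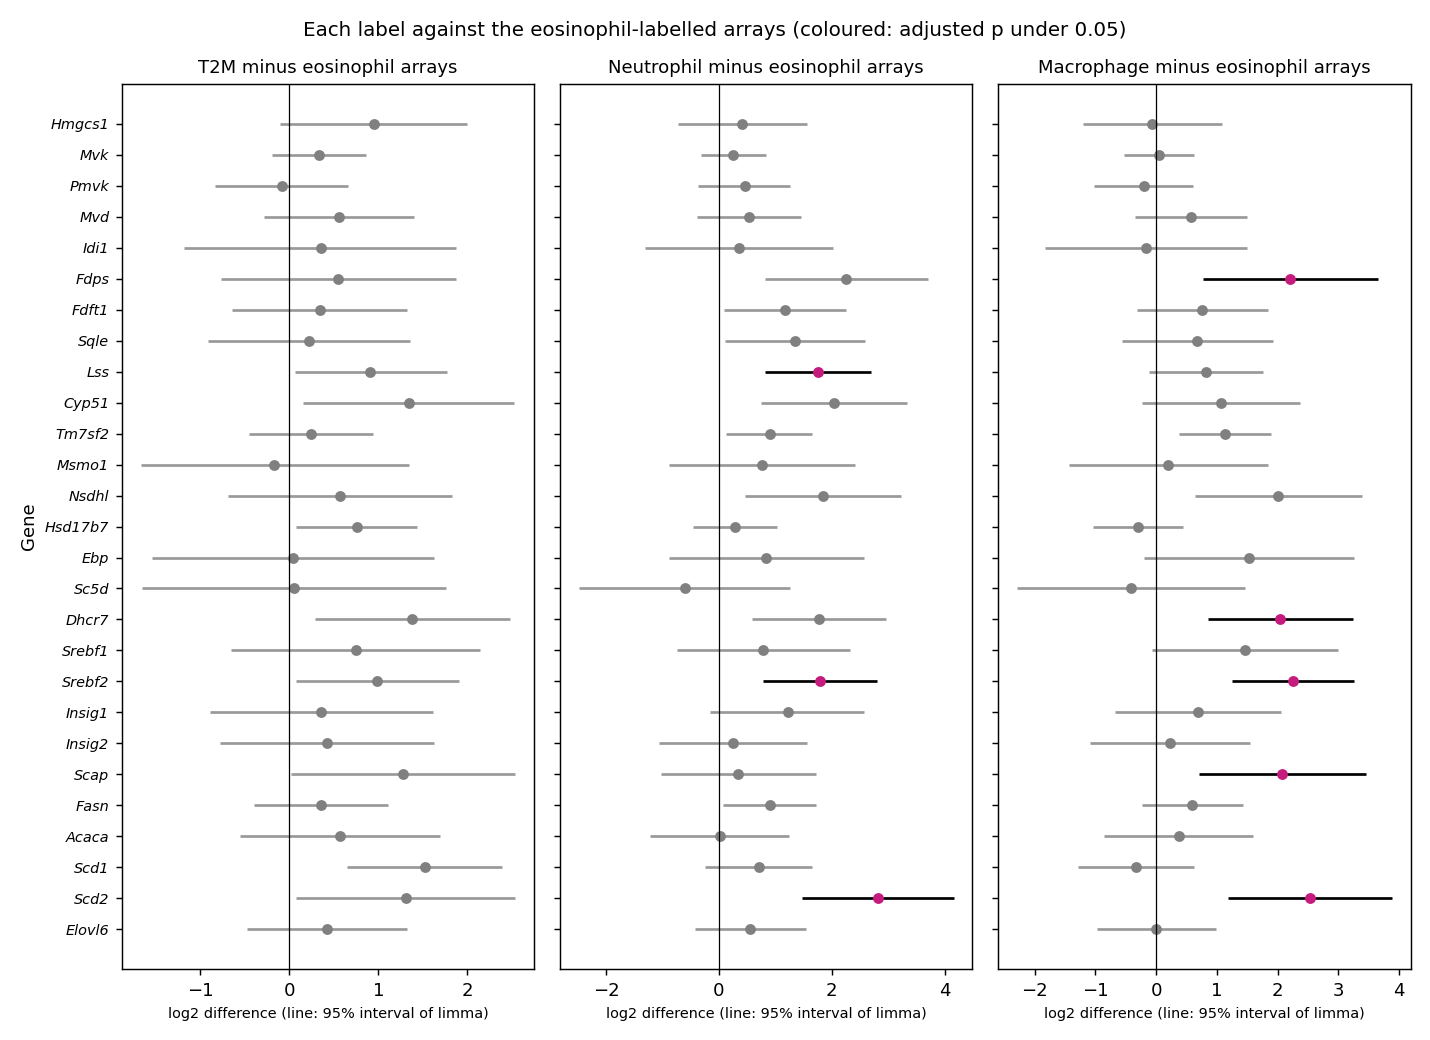
Difference of the T2M, neutrophil-labelled and macrophage-labelled arrays from the eosinophil-labelled arrays (log2, x axis) for each of the 27 members (y axis), with the 95% interval of limma as a line and called genes coloured. Most points lie above 0 in each panel, with 0, 3 and 5 members called, and all 3 panels use the same eosinophil-labelled arrays.

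The mevalonate steps turn acetyl-CoA into farnesyl pyrophosphate, and 1 of their 6 measured genes was called in 1 comparison. Fdps, which makes farnesyl pyrophosphate, was at 5.42, 5.56 and 5.58 on T2M arrays, at 4.38 and 5.56 on eosinophil-labelled arrays, at 6.19 and 8.27 on neutrophil-labelled arrays, and at 7.33 and 7.03 on macrophage-labelled arrays. The neutrophil-labelled and macrophage-labelled arrays were all above the T2M and eosinophil-labelled arrays, with the 2 neutrophil-labelled arrays far apart. Fdps was 4.62-fold lower on eosinophil-labelled than on macrophage-labelled arrays (log2 -2.21, SE 0.63, limma adjusted p = 0.0456). Against the neutrophil-labelled arrays the value was -2.26 (SE 0.63, limma adjusted p = 0.0672). The T2M arrays differed from the neutrophil-labelled arrays by -1.71 (limma adjusted p = 0.177) and from the macrophage-labelled arrays by -1.66 (limma adjusted p = 0.0811). A second, dimmer Fdps probe set gave 0.27 for eosinophil-labelled minus macrophage-labelled arrays.

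Hmgcs1, the synthase that joins acetyl-CoA and acetoacetyl-CoA ahead of mevalonate, was at 10.74, 10.12 and 11.12 on T2M arrays and at 10.30 and 9.13 on eosinophil-labelled arrays. It was at 9.68 and 10.59 on neutrophil-labelled and at 9.43 and 9.89 on macrophage-labelled arrays. The T2M mean was the highest of the 4 and all T2M arrays were above both macrophage-labelled arrays, but that difference, 1.00, was not called (SE 0.46, limma adjusted p = 0.149). Idi1, the isomerase of the isoprenoid units, was at 9.91 and 7.93 on the eosinophil-labelled arrays and at 9.98, 8.31 and 9.52 on the T2M arrays, so replicates of 1 label spanned nearly its whole range over the 9 arrays, 7.93 to 9.98. Mvk and Pmvk, the successive mevalonate kinases, and Mvd, the decarboxylase that follows, ranged over all arrays from 7.65 to 8.36, from 8.49 to 9.76 and from 7.37 to 8.69. Mvk had the smallest spread within labels of any member, an SD of 0.18.

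The squalene and sterol steps comprise 11 genes, all measured, of which 3 were called in 1 comparison each. Lss, the cyclase that forms lanosterol, was at 7.60, 7.19 and 7.19 on T2M arrays, at 6.77 and 6.05 on eosinophil-labelled arrays, at 8.74 and 7.60 on neutrophil-labelled arrays, and at 7.28 and 7.18 on macrophage-labelled arrays. Both eosinophil-labelled arrays were below all the others. Lss was 3.38-fold lower there than on neutrophil-labelled arrays (log2 -1.76, SE 0.41, limma adjusted p = 0.0376). A second Lss probe set gave -2.38 with no overlap of arrays, and another, dim one gave 0.26.

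Dhcr7, the reductase of the last step to cholesterol, was at 7.41, 7.05 and 7.83 on T2M arrays, at 6.50 and 5.59 on eosinophil-labelled arrays, at 7.06 and 8.59 on neutrophil-labelled arrays, and at 8.13 and 8.05 on macrophage-labelled arrays. Here too the eosinophil-labelled arrays were below all the others. Dhcr7 was 4.12-fold lower there than on macrophage-labelled arrays (log2 -2.04, SE 0.52, limma adjusted p = 0.0311). The T2M minus eosinophil-labelled difference was 1.38 (SE 0.48, limma adjusted p = 0.169).

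Hsd17b7, a ketosteroid reductase of C4 demethylation, was the sterol gene called higher on T2M arrays. It was at 7.82, 7.16 and 7.31 on T2M arrays, at 6.92 and 6.42 on eosinophil-labelled arrays, at 7.22 and 6.71 on neutrophil-labelled arrays, and at 6.47 and 6.27 on macrophage-labelled arrays. The T2M arrays were 2.08-fold above the macrophage-labelled arrays (log2 1.06, SE 0.29, limma adjusted p = 0.0437), with no overlap. Its 3 other probe sets, all dimmer, gave 0.04, 0.38 and 0.31. On the first of these the neutrophil-labelled arrays, at 6.25 and 7.52, were above all T2M arrays, at 5.03 to 5.78. The same held on the second, at 5.43 and 6.24 against 4.75 to 4.93.

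Cyp51, the lanosterol demethylase, was at 9.09, 8.08 and 9.20 on T2M arrays, at 8.03 and 6.87 on eosinophil-labelled arrays, at 8.84 and 10.14 on neutrophil-labelled arrays, and at 8.40 and 8.64 on macrophage-labelled arrays. On this probe set the eosinophil-labelled arrays were below all the others. They lay below T2M by 1.34 (limma adjusted p = 0.227) and below the neutrophil-labelled arrays by 2.04 (limma adjusted p = 0.0672). The neutrophil minus macrophage-labelled value was 0.97 (limma adjusted p = 0.359). On a dimmer Cyp51 probe set, eosinophil replicate 1, at 6.14, was above the T2M (5.34 to 5.89) and macrophage-labelled arrays (5.39 and 5.99). There both eosinophil-labelled arrays stayed below the neutrophil-labelled arrays. On another, eosinophil replicate 1, at 5.32, was above neutrophil replicate 1, at 4.84, but below the T2M and macrophage-labelled arrays. Nsdhl, the C4 decarboxylating dehydrogenase, was at 7.31, 6.37 and 7.60 on T2M arrays, at 7.28 and 5.76 on eosinophil-labelled arrays, at 7.81 and 8.93 on neutrophil-labelled arrays, and at 8.63 and 8.45 on macrophage-labelled arrays. Every neutrophil-labelled and macrophage-labelled array was above every T2M and eosinophil-labelled array. None of its differences was called: eosinophil-labelled minus macrophage-labelled arrays gave -2.01 (limma adjusted p = 0.0532), eosinophil-labelled minus neutrophil-labelled -1.85 (limma adjusted p = 0.107), T2M minus macrophage-labelled -1.44 (limma adjusted p = 0.101) and T2M minus neutrophil-labelled -1.28 (limma adjusted p = 0.299).

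Ebp, the sterol isomerase, was at 8.63 and 8.38 on macrophage-labelled arrays and at 6.71, 7.43 and 6.90 on T2M arrays, which did not overlap (-1.49, limma adjusted p = 0.154). It was at 5.95 and 8.01 on eosinophil-labelled arrays, a difference from macrophage-labelled arrays of -1.53 (limma adjusted p = 0.194), and at 6.84 and 8.79 on neutrophil-labelled arrays. Tm7sf2, a sterol C14 reductase, was at 7.31 and 6.56 on macrophage-labelled arrays and at 6.00 and 5.61 on eosinophil-labelled arrays (-1.13, limma adjusted p = 0.0513). Fdft1, the squalene synthase, and Sqle, the squalene epoxidase, ranged from 6.86 to 9.04 and from 5.50 to 7.91, and each was highest on neutrophil replicate 2. The C4 methyl oxidase gene Msmo1 ranged from 6.55 to 9.23 and the C5 desaturase gene Sc5d from 6.01 to 8.79, with the largest gap of each between the 2 neutrophil-labelled arrays.

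Among the 5 SREBP regulators, Srebf2 and Scap were called lower on eosinophil-labelled arrays and Srebf1, Insig1 and Insig2 were called in no comparison. Srebf2, which encodes the SREBP that drives cholesterol genes, was at 8.06, 8.80 and 8.72 on T2M arrays, at 6.93 and 8.14 on eosinophil-labelled arrays, at 9.05 and 9.61 on neutrophil-labelled arrays, and at 9.91 and 9.67 on macrophage-labelled arrays. The macrophage-labelled arrays were above all the others, and the eosinophil-labelled arrays overlapped only T2M. Srebf2 was 4.76-fold lower on eosinophil-labelled than on macrophage-labelled arrays (log2 -2.25, SE 0.44, limma adjusted p = 0.0108), and 3.45-fold lower than on neutrophil-labelled arrays (log2 -1.79, SE 0.44, limma adjusted p = 0.0451). A second probe set gave smaller differences, -1.06 and -1.12, with no overlap of arrays.

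Scap, the escort of the SREBPs, was at 6.88, 8.10 and 7.09 on T2M arrays, at 5.69 and 6.46 on eosinophil-labelled arrays, at 5.57 and 7.27 on neutrophil-labelled arrays, and at 8.18 and 8.13 on macrophage-labelled arrays. The macrophage-labelled arrays were above all the others. Scap was 4.23-fold lower on eosinophil-labelled than on macrophage-labelled arrays (log2 -2.08, SE 0.60, limma adjusted p = 0.0473), and the neutrophil minus macrophage-labelled value was -1.74 (SE 0.60, limma adjusted p = 0.202). A dim second probe set gave 0.02 for the first of these.

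Srebf1, whose SREBP1 products act mainly on fatty acid genes, was at 8.18, 7.82 and 6.45 on T2M arrays, at 6.93 and 6.54 on eosinophil-labelled arrays, at 6.64 and 8.41 on neutrophil-labelled arrays, and at 8.30 and 8.12 on macrophage-labelled arrays. Eosinophil-labelled arrays lay below macrophage-labelled arrays by 1.47, which was not called (limma adjusted p = 0.164). Insig1, a retention protein that is itself an SREBP target, ranged from 8.50 to 10.60, and Insig2, its homologue, from 6.28 to 8.27. T2M replicate 1 was the highest T2M array for both, at 10.39 and 8.27, so most of their spread lay between replicates.

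In fatty acid synthesis the stearoyl-CoA desaturases Scd1 and Scd2, homologous enzymes that introduce the double bond of oleate, had T2M minus macrophage-labelled differences of opposite sign, of which that of Scd1 was called. Scd1 was at 9.32, 8.90 and 8.29 on T2M arrays, at 7.70 and 6.94 on eosinophil-labelled arrays, at 8.21 and 7.85 on neutrophil-labelled arrays, and at 7.30 and 6.68 on macrophage-labelled arrays. On this probe set all T2M arrays were above all the others, though T2M replicate 3 exceeded neutrophil replicate 1 only narrowly. Scd1 was 3.6-fold higher on T2M than on macrophage-labelled arrays (log2 1.85, SE 0.38, limma adjusted p = 0.0154). Against eosinophil-labelled arrays the value was 1.52 (SE 0.38, limma adjusted p = 0.0656), and neutrophil minus macrophage-labelled arrays gave 1.04 (SE 0.42, limma adjusted p = 0.247). A second Scd1 probe set gave 0.97 for T2M minus macrophage-labelled arrays, with overlapping arrays. There the neutrophil-labelled arrays, at 8.66 and 7.98, had the highest mean, with T2M arrays at 8.03, 7.54 and 6.11. List means of markers of other lung cells were also highest on T2M arrays. The mean of 7 measured lung epithelium markers (of 8) was 8.73 to 9.32 on T2M arrays and 7.24 to 8.31 on the others. That of 7 alveolar macrophage markers (of 7) was 8.76 to 9.61 and 7.18 to 8.71. Not every marker moved with its list. By label mean, Epcam and Abca3 were highest on macrophage-labelled arrays (8.25 and 9.59). Scgb1a1 and Car4 were highest on eosinophil-labelled arrays (10.34 and 12.23), and Marco ranged only from 5.91 to 6.06. The part of these cells in the Scd1 difference was not tested.

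Scd2 was at 8.44, 6.62 and 7.81 on T2M arrays, at 6.43 and 6.19 on eosinophil-labelled arrays, at 8.51 and 9.75 on neutrophil-labelled arrays, and at 8.90 and 8.80 on macrophage-labelled arrays. The eosinophil-labelled arrays were below all the others, and the T2M arrays lay below the neutrophil-labelled and macrophage-labelled arrays. Scd2 was 7.04-fold lower on eosinophil-labelled than on neutrophil-labelled arrays (log2 -2.82, SE 0.59, limma adjusted p = 0.0254) and 5.79-fold lower than on macrophage-labelled arrays (log2 -2.53, SE 0.59, limma adjusted p = 0.0214). Its 2 other probe sets gave -2.76 and -2.31 in the first comparison and -1.95 and -2.10 in the second, with no overlap of arrays. T2M minus neutrophil-labelled arrays gave -1.51 (limma adjusted p = 0.203) and T2M minus macrophage-labelled arrays -1.22 (limma adjusted p = 0.138), so the T2M arrays lay on the opposite side of the macrophage-labelled arrays from Scd1 but without a call.

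Fasn, the fatty acid synthase, was at 8.78 and 8.89 on neutrophil-labelled arrays, above all other arrays, which ran from 7.61 to 8.71. It was not called in any comparison. Acaca, the acetyl-CoA carboxylase that supplies malonyl-CoA, ranged from 7.01 to 8.80, and both extremes were neutrophil-labelled arrays. Elovl6, the elongase of palmitate, ranged from 5.08 to 6.61, near the array medians.

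**Figure D3:**
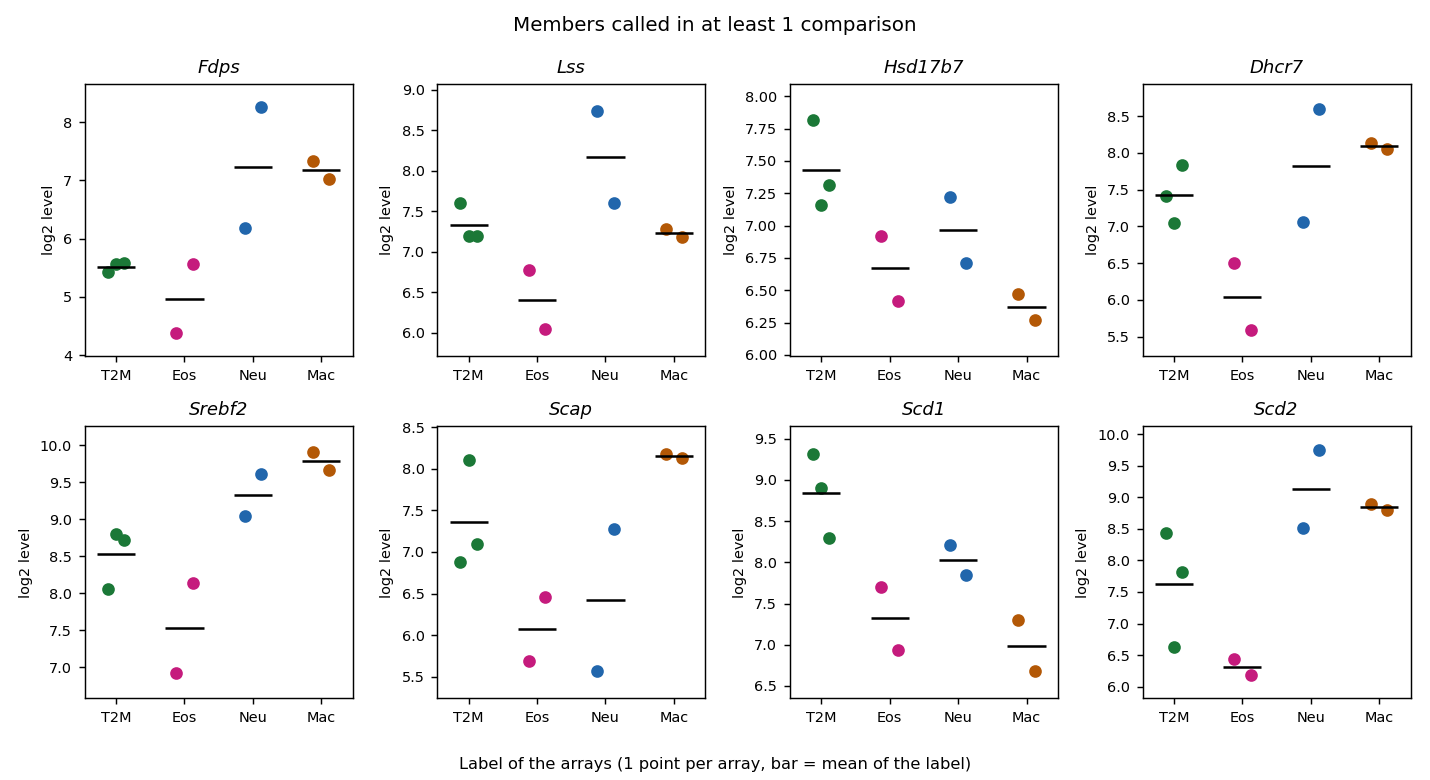
Log2 level (y axes, each with its own range) of the 8 members called in at least 1 comparison, with 1 point per array and a bar at the mean of each label (T2M 3 arrays, eosinophils, neutrophils and macrophages 2 each). Lss, Dhcr7 and Scd2 are lowest on both eosinophil-labelled arrays, and Srebf2 and Scap are highest on both macrophage-labelled arrays. Scd1, on the probe set used, is highest on the 3 T2M arrays.

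Member calls in other fits are counted here without the share of all genes called in the same fit. A change in such a count may not be particular to the members. The 10 member calls reported above were fragile in a design of 2 or 3 arrays a label. All 10 were lost without macrophage replicate 1 and also without macrophage replicate 2, when 0 members were called in each comparison, and likewise when the macrophage-labelled arrays, correlated at 0.994, were counted as 1 sample. Read from the probe set used or from the mean of a gene's probe sets, the differences kept their sign in these alternatives (the dim single probe sets of Fdps, Lss and Scap given above did not) and lay between -2.86 and -1.65 for Srebf2, between -2.65 and -2.09 for Scd2, between -2.5 and -1.59 for Dhcr7, between -2.8 and -0.97 for Fdps and between -2.47 and -1.03 for Scap (eosinophil-labelled minus macrophage-labelled). Against neutrophil-labelled arrays they lay between -3.43 and -2.2 for Scd2, between -2.33 and -1.18 for Lss and between -2.39 and -1.19 for Srebf2. For T2M minus macrophage-labelled arrays they lay between 1.41 and 2.25 for Scd1 and between 0.45 and 1.26 for Hsd17b7. Leaving out eosinophil replicate 1, eosinophil replicate 2 or T2M replicate 3 left 2, 1 and 3 members called lower on eosinophil-labelled than on macrophage-labelled arrays. Those lower than on neutrophil-labelled arrays numbered 0 when eosinophil replicate 1 was left out and 5 when neutrophil replicate 1 was. A single one was called when either T2M replicate 2, T2M replicate 3, neutrophil replicate 2 or eosinophil replicate 2 was left out. In T2M against macrophage-labelled arrays 1 member was called without any one T2M array and 3 without either neutrophil-labelled array, and in neutrophil-labelled against macrophage-labelled arrays 2 were called without neutrophil replicate 2. In T2M against neutrophil-labelled arrays 1 was called without neutrophil replicate 1.

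The synthesis genes also varied more than most genes between arrays of a label. The median SD within labels was 0.64 over members and 0.34 over all genes, and 24 of 27 members were above the latter. This comparison was not matched for level. By mean level the members lay between the 41.4 and 94.8 percentile of all genes, and the part of level in their spread was not tested. Between the neutrophil-labelled arrays 17 of 27 members differed by over 1 (63.0%, against 22.6% of all genes), and 23 of 27 were higher in replicate 2, with a median difference of -1.13 for replicate 1 minus replicate 2 against 0.09 over all genes. Of the 11 squalene and sterol genes, 8 were over 1 higher in replicate 2, while Lss (by 1.15) and the Hsd17b7 probe set used ran the other way. Of the dimmer Hsd17b7 probe sets, 2 were higher in replicate 2, at 7.52 against 6.25 and at 6.24 against 5.43. The mean of 9 measured proliferation genes (of 10) was also higher there, at 8.82 against 8.00 in replicate 1, and the mean neutrophil and eosinophil markers were lower, at 7.66 against 9.07 and 5.31 against 7.34. The part of these cells in the member difference was not tested.

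Between the eosinophil-labelled arrays 8 of 27 members differed by over 1 (29.6%, against 12.6% of all genes), with Idi1 1.98 higher in replicate 1 and Ebp 2.06 higher in replicate 2. The mean of the 9 proliferation genes was 7.70 and 6.68 on these arrays, below the 7.84 to 8.82 of all other arrays. Of the 9, 3 were called lower than on neutrophil-labelled arrays, against 4.33% of all genes. Against macrophage-labelled arrays 1 was called lower and 1 higher (11.5% and 5.89% of all genes). Mki67 went the other way, with its highest label mean (10.17) on eosinophil-labelled arrays. It was 9.9 on T2M, 9.84 on neutrophil-labelled and 8.86 on macrophage-labelled arrays. The part of these genes in the low member levels was not tested. Between T2M replicates 1 and 2, 9 of 27 members differed by over 1 (33.3%, against 16.4%), and 18 were higher in replicate 1. Insig1, by 1.83, and Scd2, by 1.81, differed most. The actin 3′ minus 5′ control difference reached 0.61 for T2M replicate 1 and 0.54 for the first eosinophil-labelled array and lay between -0.10 and 0.03 on the other arrays. The Gapdh 3′ minus 5′ difference was 3.43, 2.35 and 2.97 on T2M arrays, 2.41 and 1.09 on eosinophil-labelled, 2.20 and 1.45 on neutrophil-labelled and 1.02 and 1.20 on macrophage-labelled arrays, so this sign of RNA quality differed between T2M and macrophage-labelled arrays and between replicates. The part of either in the label and replicate differences was not tested. Between T2M replicates 1 and 3 and replicates 2 and 3, 5 and 7 members differed by over 1 (18.5% and 25.9%, against 14.7% and 5.47%). Between the macrophage-labelled arrays 0 of 27 did, against 0.176% of all genes.

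**Figure D4:**
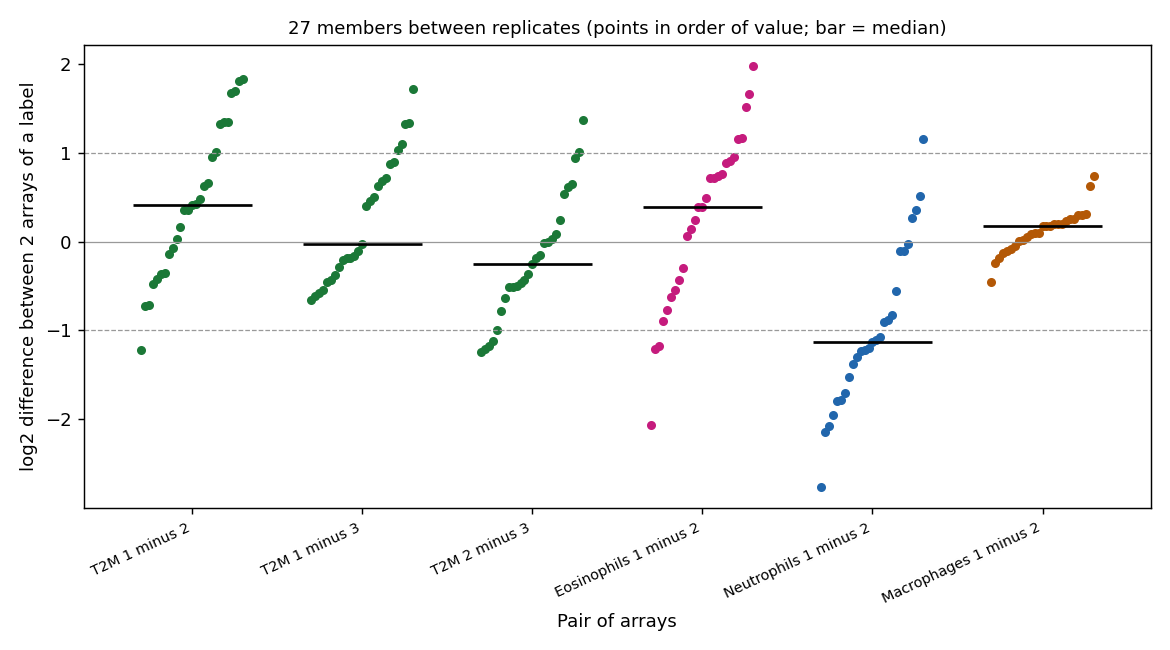
Log2 difference between 2 arrays of a label (y axis) for the 27 members, 1 column of points per pair of arrays, with a bar at the median. The neutrophil-labelled pair has its median at -1.13 and spans -2.76 to 1.15, while the macrophage-labelled pair spans -0.46 to 0.74.

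A wider list of 38 genes around the pathway, for sterol uptake, SREBP processing, sterol sensing and efflux, and fatty acid supply and storage, was read in the same fit. Of these, 31 were measured, and the others were not analysed here. In T2M against macrophage-labelled arrays 7 of 31 were called higher and 3 lower (32.3%, against 17.2% of all genes). In eosinophil-labelled against macrophage-labelled arrays 6 were higher and 4 lower (32.3%, against 17.4%). T2M against eosinophils had 2 higher and 1 lower (9.68%, against 4.46% of all genes), T2M against neutrophils 2 and 2 (12.9%, against 2.82%), eosinophils against neutrophils 1 and 3 (12.9%, against 7.88%), and neutrophils against macrophages 2 and 1 (9.68%, against 2.26%).

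In sterol sensing, oxidation and efflux, 4 of 7 measured genes were called between T2M and macrophage-labelled arrays and 5 of 7 between eosinophil-labelled and macrophage-labelled arrays, in both directions, and 2 of 7 between neutrophil-labelled and macrophage-labelled arrays. Cyp27a1, the mitochondrial sterol 27-hydroxylase, was at 11.90 and 11.56 on macrophage-labelled arrays, at 8.45 and 8.94 on neutrophil-labelled arrays, at 7.09, 7.38 and 7.34 on T2M arrays and at 6.67 and 7.16 on eosinophil-labelled arrays. T2M arrays were lower than macrophage-labelled arrays by 4.46 on the log2 scale, and this call held in all alternatives (T2M minus macrophages -4.46, limma adjusted p = 0.000139, between -4.64 and -1.9 in the alternatives). Eosinophil-labelled minus macrophage-labelled arrays gave -4.82 (limma adjusted p = 9.99e-05) and neutrophil-labelled minus macrophage-labelled arrays -3.04 (limma adjusted p = 0.00184). Against neutrophil-labelled arrays, T2M and eosinophil-labelled arrays gave -1.43 and -1.78 (limma adjusted p = 0.0347 and 0.0102). These values are from the brighter of 2 Cyp27a1 probe sets, and the other was not read on its own. With the mean of its probe sets, every Cyp27a1 call that involves neutrophil-labelled arrays was lost. For neutrophil-labelled against macrophage-labelled arrays the limma adjusted p was then 0.058.

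Abca1, the cholesterol exporter, was at 5.93 and 5.80 on macrophage-labelled arrays and from 8.55 to 10.38 on all other arrays. It was called higher in all 3 other labels than in macrophages, by 3.64 for T2M, 3.70 for eosinophils and 3.90 for neutrophils (limma adjusted p = 0.00413, 0.00429 and 0.012). Abcg1, another sterol exporter, was highest on macrophage-labelled arrays, at 11.06 and 10.88 against 8.38 to 10.73 elsewhere, and was not called (T2M minus macrophages -1.70, limma adjusted p = 0.074). Ch25h, the cholesterol 25-hydroxylase, was at 9.58, 8.88 and 7.40 on T2M arrays, at 7.66 and 6.77 on eosinophil-labelled arrays, at 5.61 and 5.60 on neutrophil-labelled arrays, and at 4.37 and 4.29 on macrophage-labelled arrays. T2M exceeded macrophage-labelled arrays by 4.29 (limma adjusted p = 0.00288, a call that held in all alternatives) and neutrophil-labelled arrays by 3.02 (limma adjusted p = 0.0364), and eosinophil-labelled exceeded macrophage-labelled arrays by 2.88 (limma adjusted p = 0.0167). Apoe, an apolipoprotein of cholesterol export, was higher on neutrophil-labelled arrays than on T2M and eosinophil-labelled arrays (differences of -2.67 and -2.96, limma adjusted p = 0.0402 and 0.0202) and lower on eosinophil-labelled than on macrophage-labelled arrays (-2.03, limma adjusted p = 0.0456). Nr1h3, the oxysterol receptor LXRα, was lower on T2M and eosinophil-labelled arrays than on macrophage-labelled arrays (-1.15 and -1.05, limma adjusted p = 0.028 and 0.0496).

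In fatty acid supply and storage, Lpin1, a phosphatidate phosphatase of triglyceride synthesis, marked the T2M arrays, at 8.41, 7.95 and 8.21 against 5.08 to 6.24 on all other arrays. It was higher on T2M than on eosinophil-labelled (2.67, limma adjusted p = 0.00604), macrophage-labelled (2.62, limma adjusted p = 0.00248) and neutrophil-labelled arrays (2.23, limma adjusted p = 0.0183). Dgat2, which makes triglyceride, was highest on the eosinophil-labelled arrays, at 10.38 and 10.30 against 6.48 to 8.38 elsewhere, the reverse of most synthesis genes. It was higher there than on neutrophil-labelled (2.93, limma adjusted p = 0.00319) and macrophage-labelled arrays (3.73, limma adjusted p = 0.000477), and T2M minus eosinophil-labelled arrays gave -2.41 (limma adjusted p = 0.00671). T2M exceeded macrophage-labelled arrays by 1.32 (limma adjusted p = 0.0258). Dgat1, of the same reaction, was higher on eosinophil-labelled and T2M arrays than on macrophage-labelled arrays (3.09 and 1.64, limma adjusted p = 0.00605 and 0.0499).

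Fabp5, a fatty acid binding protein, was at 8.74 and 8.63 on macrophage-labelled arrays and from 10.78 to 12.33 elsewhere, called in all 3 comparisons with macrophages, by 3.33 for T2M, 2.49 for eosinophils and 3.48 for neutrophils (limma adjusted p = 0.000533, 0.00195 and 0.00162). Fads1, a desaturase of polyunsaturated fatty acids, was low on eosinophil-labelled arrays, at 6.66 and 4.85 against 7.55 to 8.88 elsewhere, as Scd2 was. It was called in all 3 comparisons with that label: T2M exceeded it by 2.34 (limma adjusted p = 0.0418), and it differed from neutrophil-labelled and macrophage-labelled arrays by -3.02 and -2.07 (limma adjusted p = 0.0164 and 0.0374). Me1, which supplies NADPH, was higher on T2M and eosinophil-labelled than on macrophage-labelled arrays (1.60 and 1.19, limma adjusted p = 0.00965 and 0.0356), and Mid1ip1, an activator of acetyl-CoA carboxylase, was lower on T2M than on macrophage-labelled arrays (-0.91, limma adjusted p = 0.0317). Stard4, a sterol carrier, was not called, with 2.01 for T2M minus eosinophil-labelled arrays (limma adjusted p = 0.0553) and -1.72 for eosinophil-labelled minus macrophage-labelled arrays (limma adjusted p = 0.0568). Mbtps2, a protease that releases SREBP, gave -1.41 and -1.49 for T2M and eosinophil-labelled minus macrophage-labelled arrays, also without a call (limma adjusted p = 0.0911 and 0.107). Of the 34 calls in this list, 18 were lost when the macrophage-labelled arrays were counted as 1 sample, and 11 held in all alternatives. The calls lost on leaving out any of 5 or more of the 9 arrays, one at a time, were those of Fads1 (T2M against eosinophils), Ch25h, Cyp27a1 and Apoe (T2M against neutrophils), Mid1ip1 and Dgat1 (T2M against macrophages), and Nr1h3, Apoe and Me1 (eosinophils against macrophages). Their differences ranged in the alternatives from 1.2 to 3.25 for Fads1, from 2.54 to 3.63 for Ch25h, from -1.67 to -0.42 for Cyp27a1, from -3.15 to -2.19 and from -2.49 to -1.54 for Apoe, from -1.09 to -0.42 for Mid1ip1, from 1.32 to 2.21 for Dgat1, from -1.23 to -0.48 for Nr1h3 and from 0.84 to 1.37 for Me1, with no change of sign.

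**Figure D5:**
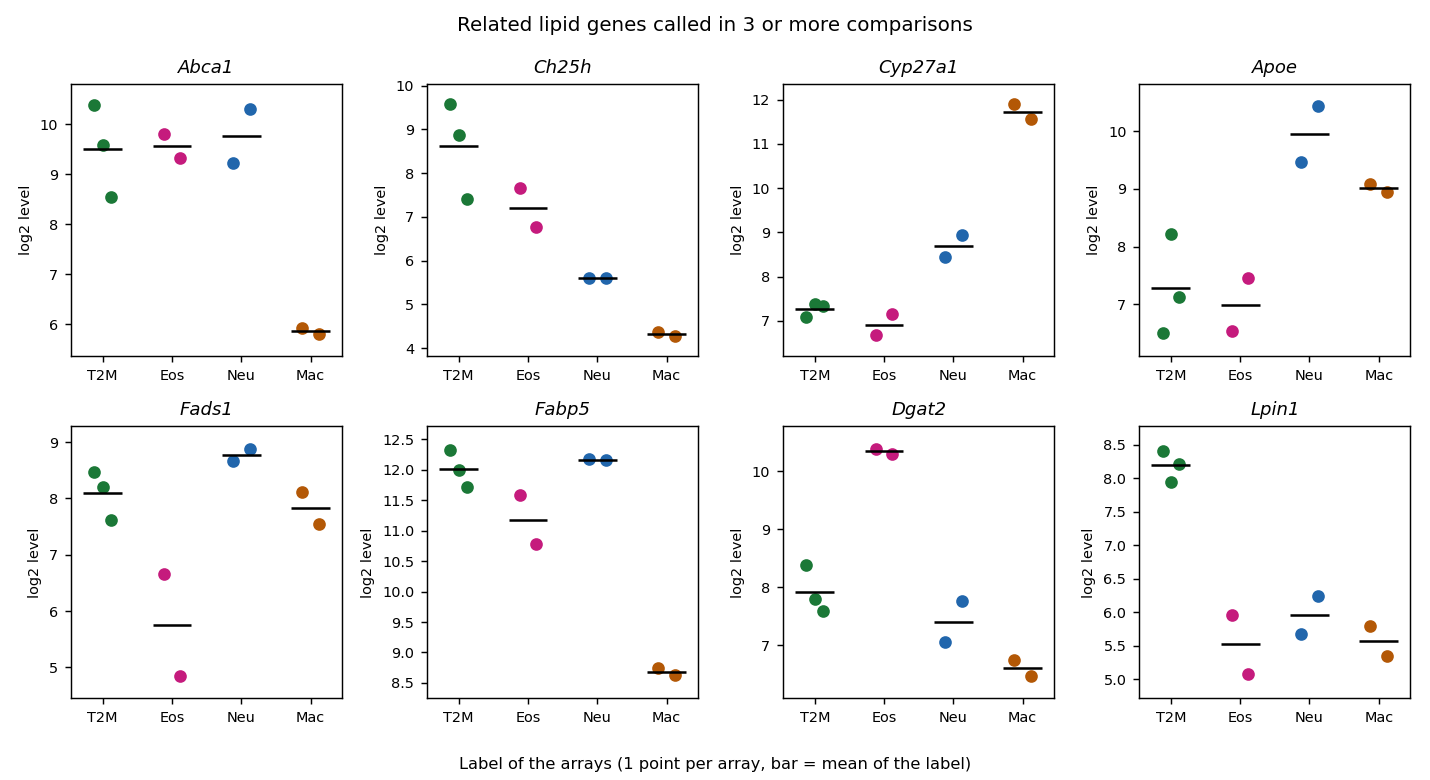
Log2 level (y axes, each with its own range) of the 8 related lipid genes called in 3 or more comparisons, with 1 point per array and a bar at the mean of each label (T2M 3 arrays, eosinophils, neutrophils and macrophages 2 each). Abca1, Ch25h and Fabp5 are lowest and Cyp27a1 highest on the macrophage-labelled arrays, Fads1 is lowest and Dgat2 highest on the eosinophil-labelled arrays, and Lpin1 is highest on the T2M arrays.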

How the data were processed

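The 9 arrays (Affymetrix mouse, 1 sorted population each) were grouped by their labels. The deposited values are log2 levels per probe set, which the authors made with RMA, affy and limma, per the submitters' processing notes, with settings not given in the sources used here. Of 45101 probe sets, 64 controls were left out, and the platform annotation gave 1 symbol for 34945, several for 932 and none for 9160. A probe set with several symbols named no gene. Symbols were checked through gene IDs against RefSeq GRCm38.p6 (34741 matched, 0 changed). The brightest probe set of each gene was kept, and 9010 of the 18193 genes had a choice.

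Label means were fitted with limma 3.58.1 in R 4.3.3 (lmFit, contrasts, eBayes, two-sided) on all 9 arrays, with 5 residual degrees of freedom, 3.26 prior degrees of freedom and a prior SD of 0.328. Adjusted p-values in the text are from this fit with Benjamini-Hochberg adjustment over all genes. The number of arrays limits the precision. The fit was tested on simulated data, and plots were made in Python 3.11.15 (matplotlib 3.10.9).

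The members and lists were chosen with earlier results of these data known, so no list was tested as a set. Named were every called gene, the 3 uncalled members with the largest difference in each comparison, and up to 2 uncalled related genes of a sublist. Other members are given by their ranges, and further genes by role.

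The alternatives were the mean of all probe sets of a gene, adjustment over every probe set (the same one read for each gene), a filter on dim genes (at least 6 on 2 arrays), a common median, quantile normalization, trended robust moderation, array weights, the 2 labels alone, a replicate block and leaving out each array. Counting the macrophage-labelled arrays as 1 sample, and recounting the lowest label mean under other settings, were chosen after seeing the data. Promoter windows were read for the 23 symbols held, and proteins were not used here.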

Additional observations from a re-analysis of the deposited data

How the results depend on the processing

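Over 162 member differences and 10 alternatives that leave out no array, 1552 values stayed on their side of the threshold, 38 lost the call and 30 gained one. Of the values, 44 (in 32 differences) changed sign, 0 of them called, with sizes up to 0.62. Called members, T2M against macrophages (2 as reported), numbered 1 with every probe set tested, trended robust moderation or the replicate block, 10 with array weights, 6 with the 2 labels alone and 0 with the macrophage-labelled arrays as 1 sample. Eosinophils against neutrophils (3) gave 5 with dim genes left out, 1 with a common median or quantile normalization, and 0 with array weights, the 2 labels alone or the macrophage-labelled arrays as 1 sample. Eosinophils against macrophages (5) gave 3 with every probe set tested or a common median, 2 with quantile normalization, 10 with array weights and 0 with the macrophage-labelled arrays as 1 sample. T2M against neutrophils and neutrophils against macrophages gave 1 each with the mean of all probe sets. The median member difference became 0.18 (T2M against macrophages, reversed) and -0.19 (eosinophils against macrophages) with quantile normalization. Npc2, in T2M against macrophages, reversed to -1.07 with the mean of all probe sets. The cause was not tested. A fit that leaves a label with 1 array assumes that it varies like the others. For the fits here and below, the share of all genes called is not given. A change in a count of called members may therefore not be particular to the members.

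Leaving out each array gave called counts of 0 to 0 (T2M against eosinophils), 0 to 1 (T2M against neutrophils), 0 to 3 (T2M against macrophages), 0 to 5 (eosinophils against neutrophils), 0 to 6 (eosinophils against macrophages) and 0 to 2 (neutrophils against macrophages). The medians, in that order, ran from 0.46 to 0.84, -0.73 to 0.15, -0.45 to -0.03, -1.18 to -0.48, -0.83 to -0.46 and -0.28 to 0.55. The eosinophil-labelled mean was the lowest for 14 to 21 members without 1 array, 16 with a common median and 17 with quantile normalization.

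Same-numbered T2M and eosinophil-labelled arrays had deviations from their label means correlated at 0.5 and 0.44, and all other same-numbered pairs lay between -0.18 and 0.05. In a label with 2 arrays the deviations of 1 array are the negative of those of the other. The values 0.5 and 0.44 are therefore not independent of each other. The main fit used no pairing. The low values of the other labels cannot decide whether T2M and eosinophil-labelled arrays were paired by number, and this was not tested. With the replicate block, 1 member was called in T2M against eosinophils (Scd1, 1.79, limma adjusted p = 0.0358), and Hsd17b7 (T2M against macrophages), Scd2 (eosinophils against neutrophils) and Dhcr7 (eosinophils against macrophages) were not called.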
